A study of Mus musculus with 12 samples.

Results

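The genes described here make up the MHC class II presentation pathway of the mouse macrophage. They are the class II chains H2-Aa, H2-Ab1 and H2-Eb1, the invariant chain Cd74, the peptide editor genes H2-DMa, H2-DMb1 and H2-DMb2, the transactivator Ciita and the protease gene Ctss. They were chosen by name for their known role and not by a measured value. All 9 were found among the 55487 genes of the count table, all 9 had counts, and all 9 were among the 15801 genes that passed the filter on low counts and were tested.

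RNA was measured by poly-A-enriched sequencing in primary macrophages grown from mouse bone marrow with macrophage colony-stimulating factor. The mice were Fes+/+ or Fes-/-, and Fes encodes a non-receptor tyrosine kinase expressed mainly in myeloid lineages. Cells were given either PBS or lipopolysaccharide (LPS) at 1 µg/mL, a bacterial product that signals through TLR4, and were harvested at 4 hours. The 4 groups were thus Fes+/+ PBS, Fes+/+ LPS, Fes-/- PBS and Fes-/- LPS, with 3 libraries each from 3 mice per genotype. In the treatment protocol the PBS groups appear as untreated cells. The strain and age of the mice and the way the Fes allele was made are not given in the sources used here. All 12 libraries carry the same batch date.

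MHC class II molecules carry peptides from the endosome to the cell surface for recognition by CD4+ T cells. The α and β chains assemble on the invariant chain CD74, cathepsin S trims that chain to the fragment CLIP, and the DM heterodimer exchanges CLIP for peptide. The coactivator CIITA switches the genes on by docking on factors bound to the X and Y boxes of their promoters, namely the RFX complex, CREB and NF-Y. In macrophages interferon-γ is the classical inducer of CIITA, and dendritic cells and B cells carry far more class II than resting macrophages.

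Promoter stretches of 4 of these genes are shown because 3 carry the class II Y box and the other, from Ctss, does not. The sequences come from the RefSeq promoter table on GRCm38.p6, whose windows run 300 bases around each gene start. That table matched 6 of the 9 symbols in 7 windows, and H2-Ab1, Ciita and Cd74 were not matched. Each sequence is written 5′ to 3′ on the coding strand. Capitals mark TGATTGG, which is the Y box, and ACNGATG, which is the end of the X box, in H2-Eb1 and H2-DMb2. In H2-Aa they mark TGATTGG and TGACG, the core of the X2 box, and in Ctss they mark the core of an interferon response element, GAAA repeated after 2 bases.
H2-Aa, chr17:34287855-34287926, minus strand: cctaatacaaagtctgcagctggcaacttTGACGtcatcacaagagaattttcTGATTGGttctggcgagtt
H2-Eb1, chr17:34305753-34305824, plus strand: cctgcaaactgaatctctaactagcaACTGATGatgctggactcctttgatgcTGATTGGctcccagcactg
H2-DMb2, chr17:34145104-34145175, plus strand: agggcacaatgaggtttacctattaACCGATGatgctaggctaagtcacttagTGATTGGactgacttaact
Ctss, chr3:95526726-95526785, plus strand: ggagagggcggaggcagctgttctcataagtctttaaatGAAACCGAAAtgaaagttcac
The Y box TGATTGG began 50 bases before the start of H2-Aa, 61 before H2-Eb1, 63 before H2-DMb1 and 92 before H2-DMb2. Starts here are those of the promoter table. For H2-DMa, H2-DMb1 and H2-DMb2 they lie inside the gene spans of the GENCODE M21 annotation. In H2-Eb1 there were 20 bases between the marked end of the X box and the Y box, and in H2-DMb1 and H2-DMb2 there were 21. Searched on both strands, TGATTGG occurred in 7.82% and ACNGATG in 9.85% of the 32851 promoter windows. The pair at a spacing of 20 or 21 bases occurred in 7 windows (0.0213%). Of these 3 belonged to H2-Eb1, H2-DMb1 and H2-DMb2 and another to the class II gene H2-Eb2. The spacing was read from those 3 genes and both motifs were chosen after their windows were seen. Their own matches were thus fixed in advance, and the share is no test of them. Over the stretch shown for H2-DMb2, 62 of 72 bases were equal in H2-DMb1. The Ctss window had the interferon element 21 bases before its start, a motif held by 3.44% of windows, and no TGATTGG. Matches of ACNGATG away from a Y box lay 206 bases before the start of Ctss and 232 before that of H2-Aa. Neither window of H2-DMa held TGATTGG or the interferon element, and 1 held the shorter ATTGG at 198 bases before the start, a motif found in 37.4% of windows. The other motifs searched were AGCAAC (14.8% of windows), with a match in H2-Eb1 alone among these genes, ACAGAT (13.7%), with a match in H2-Aa alone, and TGACG (20.8%), with matches in H2-Aa alone. TGATTGG contains ATTGG, so these searches overlap. Each match describes letters in these windows and was not tested for binding.

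The class II genes other than Ciita, Cd74 and Ctss lie together on chromosome 17 of GRCm38. By the GENCODE M21 annotation the protein-coding genes there are H2-DMa at 34119541 to 34139101, H2-DMb2 at 34143307 to 34151555, H2-DMb1 at 34153072 to 34160230, H2-Ab1 at 34257689 to 34269419, H2-Aa at 34282744 to 34287823 and H2-Eb1 at 34305867 to 34316674. Ciita lies on chromosome 16 (10480059 to 10528418), Ctss on chromosome 3 (95526786 to 95556403) and Cd74 on chromosome 18. Transcripts of H2-DMb1 and H2-DMb2 were 95.4% identical over 848 bases, so the split of reads between these copies is uncertain.

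The libraries held 61016254 to 101027166 counts each. Fes itself averaged 179 ± 10.2 CPM (mean ± SD, n = 3) in Fes+/+ PBS and 68.6 ± 2.05 CPM in Fes-/- PBS, and 162 ± 9.77 and 33.8 ± 1.16 CPM under LPS. CPM are counts scaled to a common library size with TMM factors, which set most genes level between libraries. All 12 macrophage markers, Adgre1, Csf1r and Mertk among them, had counts in every library, with summed TPM of 36756 to 49077 under PBS and 22718 to 28922 under LPS. Of the markers that define other cells that present on class II, Ms4a1 reached at most 13 counts, Cr2 was at 0 in all 12 libraries, and Flt3 reached 16 counts and Zbtb46 35. Among the other B cell markers Ighm reached 3104 counts and Cd79b 682. Among the other dendritic cell markers Cd24a reached 2725 counts, Clec10a 2238, Itgax 2129 and Kmo 635. The summed dendritic cell markers lay between 63.6 and 90.8 TPM under PBS and between 33.2 and 38.1 TPM under LPS. The summed B cell markers, to which Ighm and Cd79b gave most under PBS, lay between 47.1 and 119 TPM under PBS and between 6.98 and 18.6 TPM under LPS. Summed T and NK cell markers reached at most 8.33 TPM and neutrophil markers 44.8 TPM. TPM carry no TMM factor, and on that scale most tested genes were lower under LPS. With TMM the median log2 changes under LPS in Fes+/+ and Fes-/- cells were 0.30 and 0.35 for the macrophage markers. They were 0.28 and 0.55 for the 12 dendritic cell markers tested and -0.65 and -0.70 for the 4 B cell markers tested. No marker list had a member called between genotypes. In these bulk libraries fewer cells of a type and less RNA per cell cannot be told apart.

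The scaling matters for every LPS effect below. TMM factors were 1.35 to 1.40 in the PBS libraries and 0.707 to 0.737 in the LPS libraries, where the 100 most abundant genes took 28.0% to 28.6% of counts in place of 19.9% to 21.8%. With TMM the median log2 change of all tested genes under LPS was -0.07 in Fes+/+ and -0.08 in Fes-/- cells. With counts taken as a share of the library total it was -0.98 and -1.01. Neither scaling measures RNA per cell, so LPS effects are given under both, and ratios between the genes, which need no scaling, are given beside them. Genotype differences moved little, since both genotypes had like factors under each treatment.

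The first question was how much of each transcript the resting cells held, on the authors' TPM, which is scaled by gene length. That length covers all annotated exons, 2568 bases for H2-Ab1, whose longest coding transcript has 1212. For H2-DMb1 these lengths were 1681 and 1404 bases, so the order of genes depends on the length used. In Fes+/+ PBS macrophages Ctss, the invariant-chain protease, stood far above the rest at 7042 ± 214 TPM. Cd74, the invariant chain, followed at 296 ± 48.9 TPM. The chains and the DM genes lay well below these. H2-DMb1, a DM β chain, averaged 49.5 ± 3.46 TPM and H2-Ab1, the A β chain, 49.4 ± 4.26 TPM, and their libraries overlapped. H2-Eb1, the E β chain, averaged 34.8 ± 5.46 TPM and H2-Aa, the A α chain, 29.2 ± 3.71 TPM, again with overlapping libraries. H2-DMa, the DM α chain, averaged 20.6 ± 2.87 TPM. The lowest levels were those of H2-DMb2, at 2.09 ± 0.34 TPM, and Ciita, at 1.31 ± 0.81 TPM, whose libraries overlapped. All other neighbours in this order were separated in every library.

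The order was the same in Fes-/- PBS cells, with Ctss at 5615 ± 689 TPM, Cd74 at 264 ± 31.4 TPM and H2-Ab1 at 42.7 ± 7.22 TPM, except that H2-Ab1 then overlapped H2-Eb1 and that H2-DMb2 lay above Ciita in every library. Under LPS the order changed in both genotypes at the same places. H2-Ab1 stood above H2-DMb1 without overlap, at 43.8 ± 2.67 against 28.3 ± 2.91 TPM in Fes+/+ and at 41.0 ± 6.33 against 26.7 ± 1.67 TPM in Fes-/- cells. Ciita stood above H2-DMb2 without overlap, at 1.38 ± 0.43 against 0.49 ± 0.12 TPM in Fes+/+ and at 2.20 ± 0.35 against 0.64 ± 0.20 TPM in Fes-/- cells. Outside the list, the chain genes H2-Ea and H2-Eb2 were nearly silent. H2-Oa held 10 to 43 counts a library and H2-Ob 50 to 154. H2-Ea, the E α chain, which M21 names H2-Ea-ps and types as a polymorphic pseudogene, had 0 counts in all 12 libraries, which allows up to 3 counts, or 0.0492 CPM of the library total in the smallest library. H2-Eb2 had 28 counts over the 12 libraries. Ifng, the gene of interferon-γ, also had 0 counts in all 12.

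**Figure D1:**
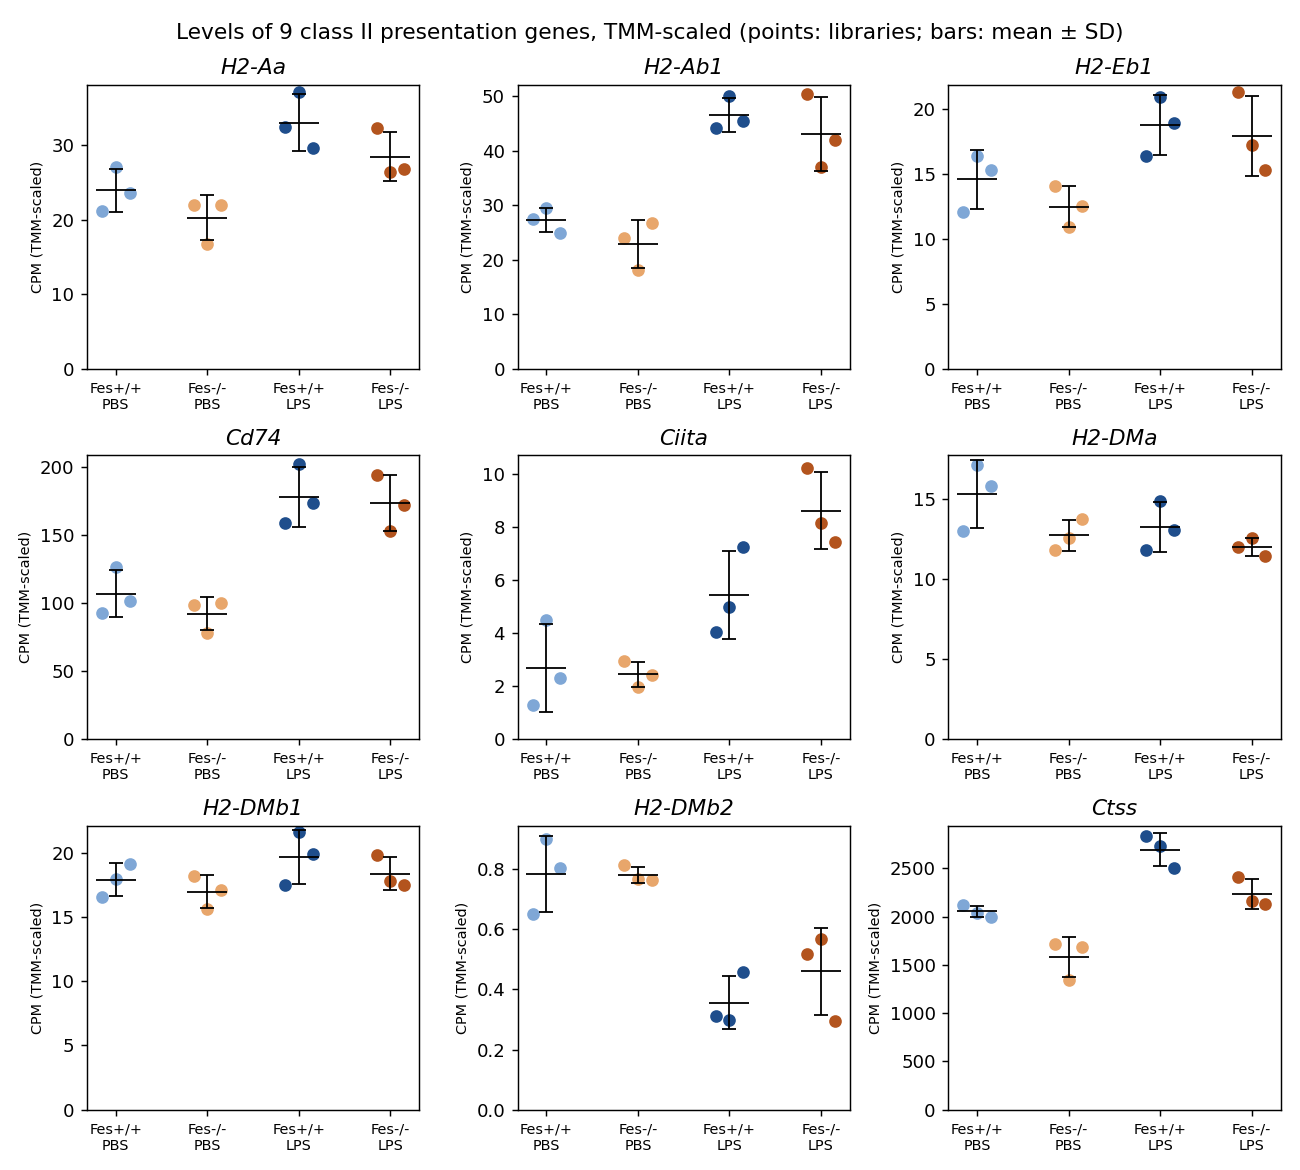
TMM-scaled CPM of the 9 genes (y axes, starting at 0) in the 4 groups (x axes), with a point per library and bars for mean ± SD of 3 libraries. With this scaling the LPS libraries of H2-Aa, H2-Ab1, Cd74 and Ctss lie above the PBS libraries of the same genotype and those of H2-DMb2 below, whereas as shares of the library total H2-Aa and Ctss fell under LPS and H2-Ab1 and Cd74 were not called.

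What LPS did to the pathway within 4 hours was asked in each genotype. With TMM scaling the chains, Cd74, Ciita and Ctss rose and H2-DMb2 fell, while H2-DMa and H2-DMb1 did not pass the test. As shares of the library total, the same libraries gave lower H2-Aa, H2-Eb1, H2-DMa, H2-DMb1, H2-DMb2 and Ctss, and H2-Ab1 and Cd74 did not pass the test. H2-DMb2 was lower, H2-DMa had a negative value and Ciita had a positive value under both scalings in both genotypes. In Fes+/+ cells 6 of 9 genes were called higher with TMM, beside 34.6% of all tested genes, and 1 lower, beside 38.8%. The median of the 9 log2 changes was 0.39, beside -0.07 over all tested genes. As shares of the total 0 were called higher, beside 16.3%, and 6 lower, beside 68.5%, with a median of -0.52 beside -0.98. In Fes-/- cells 6 were called higher with TMM, beside 34.3%, and 1 lower, beside 38.9%, with a median of 0.50 beside -0.08. As shares of the total 1 was called higher, beside 15.9%, and 6 lower, beside 70%, with a median of -0.44 beside -1.01. Every LPS library lay above every PBS library of its genotype for 4 of the 9 genes in Fes+/+ cells with TMM, beside 35.4% of all tested genes, and below for 1, beside 39.8%. In the Fes-/- libraries this held for 6 genes, beside 36.3%, and for 1, beside 41%. Adjusted p-values come from edgeR's quasi-likelihood test with Benjamini-Hochberg adjustment over all tested genes, called under 0.05.

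Of the chain genes, H2-Ab1, the β chain of the A molecule, had the largest TMM changes. It measured 27.4, 29.5 and 25.0 CPM in the Fes+/+ PBS libraries and 44.1, 50.0 and 45.4 CPM in the Fes+/+ LPS libraries. The Fes-/- libraries held 24.0, 18.0 and 26.7 CPM under PBS and 50.5, 37.0 and 42.0 CPM under LPS. Every LPS library lay above every PBS library of its genotype. The TMM log2 change was 0.77 ± 0.14 (± SE, adjusted p = 0.000157) in Fes+/+ and 0.91 ± 0.14 (adjusted p = 3.2e-05) in Fes-/- cells. As a share of the total it was -0.14 ± 0.13 (adjusted p = 0.311) and -0.02 ± 0.13 (adjusted p = 0.894), so the rise was seen against the typical gene and not against the library total.

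H2-Aa, whose product pairs with that of H2-Ab1, measured 21.2, 27.1 and 23.6 CPM in Fes+/+ PBS and 32.5, 37.1 and 29.6 CPM in Fes+/+ LPS libraries. In Fes-/- libraries it measured 21.97, 16.8 and 22.1 CPM under PBS and 32.3, 26.4 and 26.8 CPM under LPS. Its PBS and LPS libraries did not overlap in either genotype. The TMM change was 0.47 ± 0.13 (adjusted p = 0.00447) in Fes+/+ and 0.49 ± 0.13 (adjusted p = 0.00301) in Fes-/- cells, and as a share of the total the change reversed to -0.45 ± 0.13 (adjusted p = 0.00385) and -0.44 ± 0.13 (adjusted p = 0.00434).

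H2-Eb1, which encodes the β chain of the E molecule, overlapped between treatments in Fes+/+ cells. It measured 12.1, 16.4 and 15.3 CPM in Fes+/+ PBS and 16.4, 20.96 and 18.9 CPM in Fes+/+ LPS libraries, with the highest PBS library level with the lowest LPS library. In Fes-/- cells the PBS libraries held 14.1, 10.9 and 12.5 CPM and the LPS libraries 21.3, 17.2 and 15.3 CPM, without overlap. The TMM change was 0.36 ± 0.15 (adjusted p = 0.0377) in Fes+/+ and 0.53 ± 0.15 (adjusted p = 0.00498) in Fes-/- cells. As a share of the total it was -0.55 ± 0.15 (adjusted p = 0.00256) and -0.41 ± 0.15 (adjusted p = 0.0166). The call with TMM in Fes+/+ cells was lost without PBS replicate 1 (0.24, adjusted p = 0.165), LPS replicate 2 (0.27, adjusted p = 0.151) or LPS replicate 3 (0.35, adjusted p = 0.0833).

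Cd74, the invariant chain on which the α and β chains assemble, measured 93.0, 126 and 101 CPM in Fes+/+ PBS and 159, 202 and 173 CPM in Fes+/+ LPS libraries. Fes-/- libraries held 98.6, 78.2 and 99.9 CPM under PBS and 194, 153 and 172 CPM under LPS. The LPS libraries were all higher. Its TMM change was 0.74 ± 0.13 (adjusted p = 0.000199) in Fes+/+ and 0.91 ± 0.14 (adjusted p = 2.86e-05) in Fes-/- cells, close in size to that of H2-Ab1. As a share of the total it was -0.18 ± 0.13 (adjusted p = 0.203) and -0.02 ± 0.13 (adjusted p = 0.863).

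The DM genes, whose products form the peptide editor, differed from the chains. H2-DMa measured 13.0, 17.1 and 15.8 CPM in Fes+/+ PBS and 11.8, 14.9 and 13.0 CPM in Fes+/+ LPS libraries, and 11.8 to 13.8 CPM under PBS against 11.4 to 12.6 CPM under LPS in Fes-/- cells. These groups overlapped. Its TMM changes were -0.21 ± 0.12 (adjusted p = 0.121) and -0.08 ± 0.12 (adjusted p = 0.529), and as a share of the total it fell by 1.12 ± 0.11 (adjusted p = 2.32e-07) and 1.02 ± 0.11 (adjusted p = 6.95e-07) on the log2 scale. Its change in Fes+/+ cells was called with TMM when PBS replicate 1 (-0.31, adjusted p = 0.0215) or LPS replicate 2 (-0.30, adjusted p = 0.0422) was left out. It was also called with the replicate number as a block within genotype (-0.21, adjusted p = 0.0464), which made 2 members lower in place of 1. H2-DMb1, the more abundant β chain gene, ranged from 15.6 to 19.1 CPM under PBS and from 17.5 to 21.6 CPM under LPS over both genotypes, with overlap. Its TMM changes were 0.14 ± 0.10 (adjusted p = 0.223) and 0.12 ± 0.10 (adjusted p = 0.302), and its changes as a share of the total were -0.78 ± 0.10 (adjusted p = 2.63e-06) and -0.82 ± 0.10 (adjusted p = 1.47e-06).

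H2-DMb2, the scarcer β chain gene, was the member called lower under both scalings in both genotypes. Its counts were 67, 78 and 72 in the Fes+/+ PBS libraries and 14, 14 and 22 in the Fes+/+ LPS libraries. Those of Fes-/- cells were 70, 75 and 65 under PBS and 38, 32 and 14 under LPS. In CPM this was 0.65 to 0.90 against 0.30 to 0.46 in Fes+/+ and 0.76 to 0.81 against 0.30 to 0.57 in Fes-/- cells, without overlap. The TMM change was -1.13 ± 0.29 (adjusted p = 0.00278) in Fes+/+ and -0.74 ± 0.27 (adjusted p = 0.0246) in Fes-/- cells, and as a share of the total -2.04 ± 0.29 (adjusted p = 1.02e-05) and -1.67 ± 0.28 (adjusted p = 4.37e-05). With TMM the call in Fes-/- cells was lost without PBS replicate 1 (adjusted p = 0.0697), PBS replicate 2 (adjusted p = 0.0505) or LPS replicate 3 (-0.53, adjusted p = 0.104). H2-DMb1 shares most of its sequence with this gene and did not fall with TMM.

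Ciita, the transactivator of the chain, Cd74 and DM genes, was low and the most variable of the 9. Its counts were 132, 391 and 206 in Fes+/+ PBS and 182, 233 and 350 in Fes+/+ LPS libraries. The Fes-/- counts were 253, 192 and 208 under PBS and 752, 462 and 352 under LPS. In CPM the Fes+/+ libraries held 1.28, 4.50 and 2.30 under PBS and 4.05, 4.98 and 7.25 under LPS, with overlap, and the Fes-/- libraries 2.93, 1.96 and 2.44 under PBS and 10.2, 8.16 and 7.44 under LPS, well apart. The highest of the Fes+/+ PBS libraries held 3.53 times the lowest. The TMM change was 1.02 ± 0.38 (adjusted p = 0.0284) in Fes+/+ and 1.82 ± 0.38 (adjusted p = 0.000875) in Fes-/- cells. As a share of the total it was 0.11 ± 0.37 (adjusted p = 0.796) and 0.89 ± 0.37 (adjusted p = 0.039). The call in Fes+/+ cells was lost with TMM without PBS replicate 1 (0.67, adjusted p = 0.0674), PBS replicate 3 (0.93, adjusted p = 0.0855), LPS replicate 2 (1.07, adjusted p = 0.0523) or LPS replicate 3 (0.75, adjusted p = 0.125). It was also lost when the 6 libraries compared were fitted alone (1.01, adjusted p = 0.0536).

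In the Fes+/+ PBS libraries Ciita moved with the B cell marker sum, which was 47.1, 119 and 76.2 TPM in replicates 1, 2 and 3, with 5, 3 and 4 of the 12 markers at 0. Ighm, the immunoglobulin heavy chain gene, gave most of it, at 25.1, 88.5 and 48.2 TPM. The dendritic cell marker sums stood in the same order, at 63.6, 88.3 and 81.5 TPM. In Fes-/- PBS libraries the B cell sums were 56.5, 55.2 and 87.5 TPM and the dendritic cell sums 81.5, 90.8 and 73.2 TPM. Both stood in another order than Ciita, and replicate 2 had the highest dendritic cell sum and the lowest Ciita. Under LPS the B cell sums were 6.98 to 18.6 TPM. On the same TPM scale Ciita averaged 1.31 under PBS and 1.38 under LPS in Fes+/+ cells, and 1.23 and 2.20 in Fes-/- cells. The part of these markers in the Ciita values was not tested.

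Ctss, the protease gene, measured 2120, 2040 and 2001 CPM in Fes+/+ PBS and 2837, 2735 and 2504 CPM in Fes+/+ LPS libraries. In Fes-/- cells it measured 1720, 1348 and 1684 CPM under PBS and 2414, 2164 and 2128 CPM under LPS. LPS libraries lay above PBS libraries within each genotype. The TMM change was 0.39 ± 0.10 (adjusted p = 0.00337) and 0.50 ± 0.10 (adjusted p = 0.000522), and as a share of the total it reversed to -0.52 ± 0.10 (adjusted p = 0.000198) and -0.44 ± 0.10 (adjusted p = 9e-04).

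**Figure D2:**
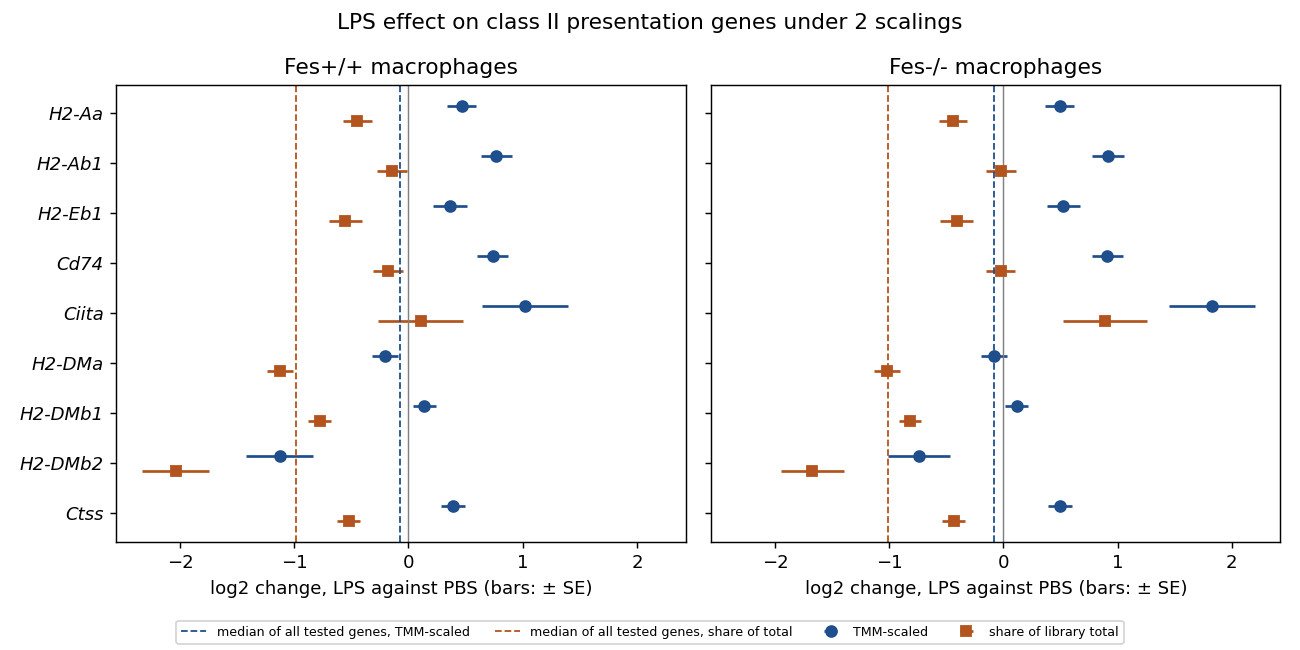
Log2 change under LPS against PBS (x axis) of the 9 genes (y axis) in Fes+/+ and Fes-/- macrophages, with circles for TMM-scaled counts, squares for shares of the library total, bars for ± SE and dashed lines for the median of all tested genes under each scaling. Changing the scaling moves every gene to the left by a like amount and reverses H2-Aa, H2-Ab1, H2-Eb1, Cd74, H2-DMb1 and Ctss. H2-DMa and H2-DMb2 stay below 0 and Ciita above 0.

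Ratios within a library do not depend on the scaling, so each gene's counts were set against those of Cd74, a measure added after the levels had been seen. Relative to Cd74 the A β chain gene H2-Ab1 lay at a like level under PBS and LPS, the other chain genes lay a little lower under LPS, and the DM genes lay lower still. The typical gene also lay lower relative to Cd74. Over the other tested genes with a count above 0 in all 6 libraries compared, the median difference was -0.79 in Fes+/+ and -0.98 in Fes-/- cells. Of these genes 57.5% lay lower and 15.4% higher without overlap in Fes+/+ cells, and 67.2% lower and 13.5% higher in Fes-/- cells. The log2 ratio of H2-Ab1 to Cd74 averaged -1.96 ± 0.18 in Fes+/+ PBS and -1.93 ± 0.08 in Fes+/+ LPS libraries (n = 3 each), and -2.02 ± 0.11 and -2.01 ± 0.06 in Fes-/- libraries, with overlap in both. For H2-Aa the LPS ratio less the PBS ratio was -0.27 in Fes+/+ and -0.42 in Fes-/- cells, and for H2-Eb1 it was -0.37 and -0.39, in each case without overlap. For H2-DMa this difference was -0.95 and -0.99, for H2-DMb1 -0.61 and -0.80 and for H2-DMb2 -1.89 and -1.73, without overlap in either genotype. The H2-DMa and H2-DMb1 values were thus near that of the typical gene. For Ctss it was -0.35 in Fes+/+ cells, with overlap, and -0.41 in Fes-/- cells, without. For Ciita it was 0.42 in Fes+/+ cells, with overlap, and 0.91 in Fes-/- cells, where every LPS library lay above every PBS library. For groups of 3 against 3 the two-sided exact permutation test cannot go below p = 0.1, which each separated ratio reached. Over the 8 ratios the adjusted value of these was 0.16 in Fes+/+ and 0.114 in Fes-/- cells, so none passed the threshold. The ratios share their denominator and are not independent of each other.

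**Figure D3:**
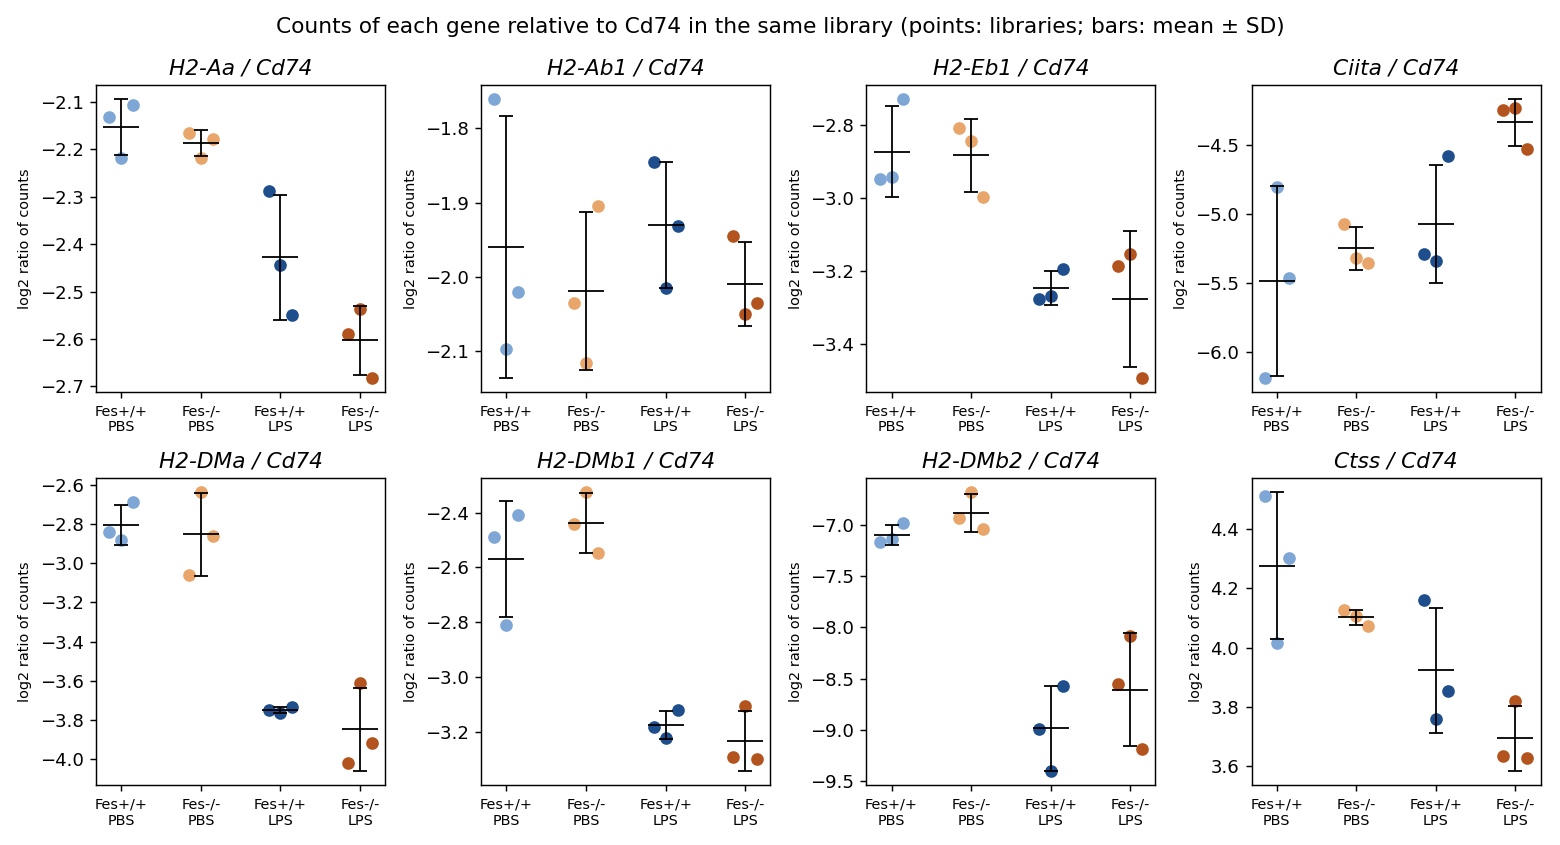
Log2 ratio of the counts of 8 genes to those of Cd74 in the same library (y axes, scaled to each gene's range) in the 4 groups (x axes), with a point per library and bars for mean ± SD of 3 libraries. The LPS libraries of H2-Aa, H2-Eb1, H2-DMa, H2-DMb1 and H2-DMb2 lie below the PBS libraries of their genotype, H2-Ab1 overlaps, and Ciita lies highest in the Fes-/- LPS libraries.

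The next question was whether resting Fes-/- macrophages carried another level of these genes than Fes+/+ cells. No member was called, beside 0.0506% of all tested genes called higher and 0.0316% called lower, although all 9 log2 differences were below 0. Their median was -0.22, beside 0 for all tested genes. It was -0.12 without Fes-/- PBS replicate 2, -0.14 without Fes+/+ PBS replicate 2 and -0.34 without Fes+/+ PBS replicate 1. At an unadjusted p under 0.05 there were 2 of 9, Ctss and H2-DMa, beside 3.83% of all tested genes. DESeq2 called 0 of 9. The 12 macrophage markers were negative in 11 cases, with a median of -0.15, and their summed TPM was 42091 to 49077 in Fes+/+ and 36756 to 47544 in Fes-/- PBS libraries. All 5 neutrophil markers tested were negative, with a median of -0.79, and their sums did not overlap, at 32.6 to 44.8 TPM in Fes+/+ and 22.8 to 30.2 TPM in Fes-/- libraries. Of 12 dendritic cell markers 8 were negative, with a median of -0.29 and sums of 63.6 to 88.3 against 73.2 to 90.8 TPM. Of 4 B cell markers 3 were negative, with a median of -0.26, and both T and NK cell markers tested were negative, with a median of -0.73. The part of these markers in the class II values was not tested.

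Ctss, the invariant-chain protease gene, had the smallest p of the 9. Its Fes-/- PBS libraries, at 1348 to 1720 CPM, all lay under the Fes+/+ PBS libraries, at 2001 to 2120 CPM. Over all tested genes 3.8% were lower without overlap in this comparison and 3.03% higher, as was no member. The log2 difference was -0.37 ± 0.10 with an adjusted p of 0.859, so it did not pass. Among the other 8 genes every pair of groups overlapped. The differences of the chain genes and Cd74 lay between -0.21 and -0.25, each with an SE between 0.13 and 0.15. H2-DMa differed by -0.27 ± 0.11, with a 95% interval from -0.51 to -0.02. H2-DMb1 differed by -0.08 ± 0.10 and H2-DMb2 by -0.01 ± 0.25. For Ciita the difference was -0.14 ± 0.38 with an interval from -0.96 to 0.69, the widest of the 9.

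Under LPS the same comparison again called no member, beside 0.0696% of all tested genes higher and 0.038% lower. The median difference was -0.10, and 7 of 9 were negative. The median was -0.02 without Fes+/+ LPS replicate 2, -0.03 without Fes-/- LPS replicate 2, -0.06 without Fes-/- LPS replicate 3 and -0.16 without Fes-/- LPS replicate 1. Ctss alone had an unadjusted p under 0.05, beside 6.52% of all tested genes, and DESeq2 called 0 of 9. Ctss was again lower in every Fes-/- LPS library (2128 to 2414 CPM) than in any Fes+/+ LPS library (2504 to 2837 CPM), as were 5.63% of all tested genes in their own levels. Its difference was -0.27 ± 0.10 (adjusted p = 0.719). Ciita was higher in every Fes-/- LPS library (7.44 to 10.2 CPM) than in any Fes+/+ LPS library (4.05 to 7.25 CPM), as were 5.78% of all tested genes in theirs, although the gap between the nearest libraries was small. Its difference was 0.67 ± 0.37 (adjusted p = 0.81), with a 95% interval from -0.14 to 1.47. Relative to Cd74 the Ciita difference was 0.73, without overlap (two-sided exact permutation p = 0.1, 0.4 after adjustment over 8 ratios). By the same ratio 2.65% of the other tested genes lay higher without overlap, and their median difference was 0.04. The remaining differences ran from -0.21 for H2-Aa to 0.38 for H2-DMb2, and their libraries overlapped. The 2 genotype comparisons use separate libraries, whereas each LPS comparison shares its groups with both of them.

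When no filter on low counts was used, Ctss under PBS (-0.39, adjusted p = 0.0392) and Ciita under LPS (0.70, adjusted p = 0.00352) passed the threshold. These were the only member calls between genotypes among the alternatives run, and that fit called 164 genes higher and 151 lower under PBS and 232 higher and 126 lower under LPS, in place of 8 and 5 and of 11 and 6.

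**Figure D4:**
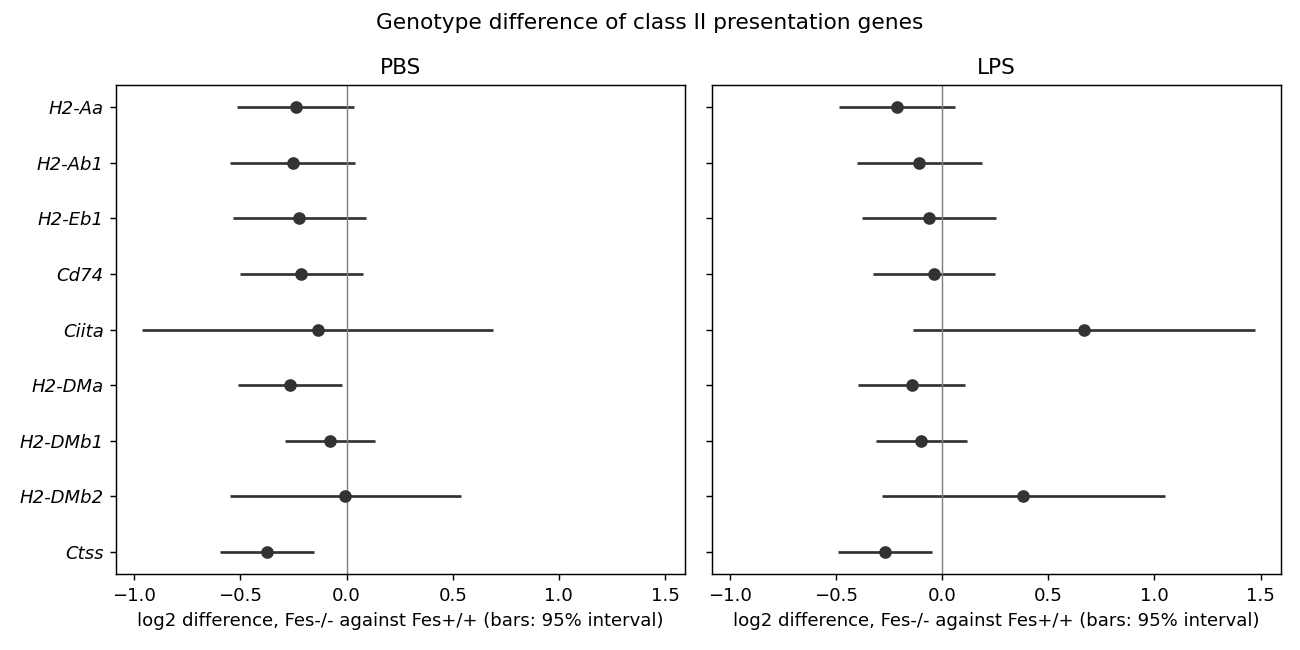
Log2 difference of Fes-/- against Fes+/+ macrophages (x axis) for the 9 genes (y axis) under PBS and under LPS, TMM-scaled, with bars for the 95% interval. All 9 points lie below 0 under PBS, the interval of Ctss excludes 0 under both treatments and that of H2-DMa under PBS, and no gene passed the test after adjustment over all tested genes.

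Whether the LPS effect itself depended on genotype was tested as an interaction. None of the 9 genes was called, beside 0.00633% of all tested genes called higher and 0.0127% lower. At an unadjusted p under 0.05 there were 0 of 9, beside 2.94%, and DESeq2 called 0. The difference of the LPS effects was positive for 8 of 9 genes, with a median of 0.15 beside 0 over all tested genes to 2 decimals. That median was 0.05 without Fes-/- LPS replicate 1, 0.07 without Fes-/- PBS replicate 2, 0.08 without Fes+/+ PBS replicate 2, and 0.25 and 0.22 without Fes+/+ PBS replicate 1 and LPS replicate 2. It was 0.80 ± 0.53 for Ciita, with a 95% interval from -0.35 to 1.96. For H2-Ab1 it was 0.15 ± 0.19 and for Cd74 0.17 ± 0.19, with intervals from -0.27 to 0.56 and from -0.23 to 0.58. The larger value of Ciita in Fes-/- cells was therefore not shown to differ from that in Fes+/+ cells.

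The spread within groups was described by each library's deviation from its group mean in log2 CPM, over 12 libraries. The chain genes each deviated with Cd74. Pearson's r was 0.91 between H2-Aa and Cd74, 0.83 between H2-Ab1 and Cd74 and 0.81 between H2-Eb1 and Cd74, but 0.58 between H2-Ab1 and H2-Eb1. H2-DMb1 went with H2-Eb1 (0.90), and Ciita with H2-Eb1 (0.76) and Cd74 (0.71). Ctss went with H2-Ab1 (0.78) and H2-Aa (0.73) but not with Ciita (0.05) or H2-DMa (-0.12). H2-DMb2, with its low counts, had r of 0.11 with H2-Aa and 0.12 with Cd74, and 0.62 with Ciita and 0.54 with H2-Eb1. The Fes+/+ PBS replicate 2 library was high in H2-Aa, H2-Eb1, Cd74 and Ciita. It also had the highest B cell, dendritic cell, macrophage and T and NK cell marker sums of its group. Fes-/- PBS replicate 2 was low in all 3 chain genes and in Cd74. That library had the lowest B cell, macrophage and T and NK cell marker sums of its group but the highest dendritic cell sum. Libraries share depth and composition, so these values carry no test.

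**Figure D5:**
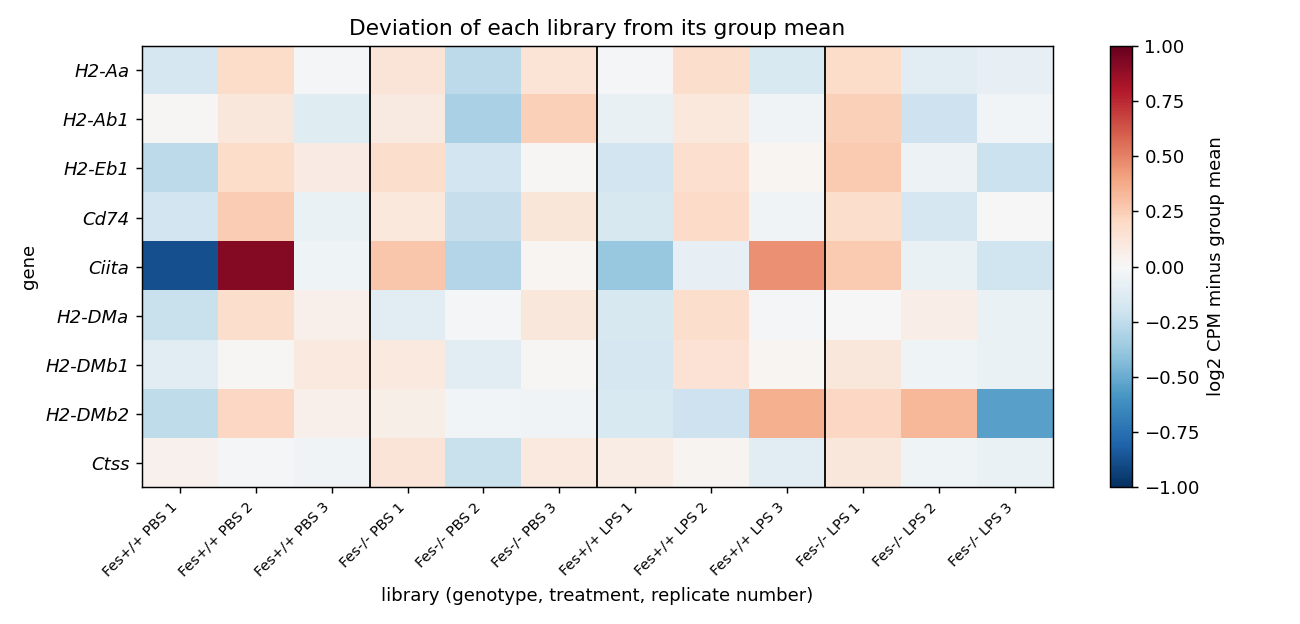
Deviation of each library (x axis) from its group mean for the 9 genes (y axis), in log2 CPM on a color scale from -1 to 1, with lines between the 4 groups. H2-Aa, H2-Ab1, H2-Eb1 and Cd74 are high or low in much the same libraries, and the darkest cells are Ciita in Fes+/+ PBS replicates 1 and 2.

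Other genes of the pathway were taken from a list of 25 symbols, of which 22 were in the table and 20 were tested. With TMM 9 were higher and 5 lower under LPS in Fes+/+ cells, and 9 higher and 3 lower in Fes-/- cells. Over all tested genes the shares were 34.6% and 38.8%, and 34.3% and 38.9%. As shares of the total the counts were 2 higher and 12 lower, and 2 higher and 13 lower, beside 16.3% and 68.5%, and 15.9% and 70% of all tested genes. Cd83, which protects surface class II from ubiquitin-driven removal, rose by 4.87 ± 0.15 and 4.73 ± 0.15 on the log2 scale with TMM and by 3.96 and 3.80 as a share of the total. Sppl2a, which encodes the protease that clears the remnant of CD74 from the membrane, rose by 1.86 ± 0.08 and 1.82 ± 0.08 with TMM and by 0.95 and 0.89 as a share. The subunits of the RFX complex, which binds the X box, parted. Rfxap changed by -2.02 ± 0.14 and -1.99 ± 0.14 with TMM and by -2.93 and -2.92 as a share. Rfxank changed by -1.46 ± 0.14 and -1.72 ± 0.14 with TMM and by -2.37 and -2.66 as a share. Rfx5 rose by 1.02 ± 0.09 and 0.85 ± 0.09 with TMM and did not pass as a share of the total, at 0.10 and -0.08. Between genotypes none of the 20 was called, and the smallest p belonged to Ctsl, a cathepsin gene, at -0.37 under PBS (adjusted p = 0.674) and -0.33 under LPS (adjusted p = 0.615).

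A list of 26 genes chosen as regulators of Ciita and of class II had 25 tested. It mixes genes of interferon and cytokine signalling with transcription and chromatin factors. With TMM 19 were higher and 2 lower under LPS in Fes+/+ cells, and 21 higher and 3 lower in Fes-/- cells, beside 34.6% and 38.8%, and 34.3% and 38.9% of all tested genes. As shares of the total 17 were higher and 6 lower, and 16 higher and 6 lower, beside 16.3% and 68.5%, and 15.9% and 70%. Jak2, a kinase of the interferon-γ receptor, rose by 5.29 ± 0.12 and 5.24 ± 0.12 with TMM and by 4.37 and 4.30 as a share. Ifngr1, a chain of that receptor, went the other way. It measured 186 to 203 CPM under PBS and 67.5 to 74.0 CPM under LPS in Fes+/+ cells. As a share of the total it changed by -2.37 and -2.38 in Fes+/+ and Fes-/- cells, and the other chain gene, Ifngr2, by 0.53 and 0.54. Irf1, a factor that binds a Ciita promoter, rose by 3.39 ± 0.11 and 3.53 ± 0.11 with TMM and by 2.48 and 2.60 as a share. Socs1, an inhibitor of that pathway, rose by 9.08 ± 0.23 and 8.76 ± 0.23 with TMM and by 8.17 and 7.83 as a share. Il10, a cytokine that lowers class II at the surface of monocytes, rose by 7.28 ± 0.18 and 7.29 ± 0.18 with TMM and by 6.36 and 6.36 as a share. Between genotypes none of the 25 was called. Irf8, a myeloid interferon regulatory factor, had the only unadjusted p under 0.05 among them under LPS (0.32) and in the interaction (0.57 ± 0.17, adjusted p = 1).

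The genes most like the core of the pathway were those whose log2 CPM followed the mean of H2-Aa, H2-Ab1, H2-Eb1 and Cd74 over the 12 libraries. The closest among non-members were Ly86, the partner of the TLR-like receptor RP105, with r of 0.98, Mpeg1, the perforin-2 gene, with 0.98, and Cog4, Tec, Zfp821, Lamp1, Tcf25 and Unc93b1, down to 0.96. Of the other members Ctss had r of 0.89, Ciita 0.82, H2-DMb1 0.79, H2-DMa -0.04 and H2-DMb2 -0.72. This likeness holds mostly the step from PBS to LPS, which depends on the scaling. The likeness was computed with TMM scaling only. On deviations from the group means the closest were Dcaf11 at 0.95, Tppp3, Bfar, Arhgap45, Dhrs1, Zfand1, Otulinl and Lgmn, the legumain gene, at 0.93. Among the other members H2-DMb1 had r of 0.78, Ctss 0.65, Ciita 0.65, H2-DMa 0.53 and H2-DMb2 0.20.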

How the data were processed

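Poly-A RNA of 12 macrophage libraries was sequenced. Raw counts per Ensembl gene were deposited by the authors as whole numbers, and the authors' TPM values are scaled by gene length. The submitters' processing notes name the tools DESeq2 1.34.0, STAR 2.7.8a, R 4.1.12 and Picard 2.9.0, with builds GRCm38 and mm9 named without roles. The counting program and its use of strand are not given in the sources used here. Counts divided by TPM gave lengths within 1% of GENCODE M21 exon lengths for 9349 of 9482 genes (98.6%) and for 8 of 8 of the class II genes with 100 counts in every library, so GRCm38 positions were used.

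Tests on counts used edgeR 4.0.16 under R 4.3.3. filterByExpr over the 4 groups kept 15801 genes, TMM factors scaled the libraries, and a robust quasi-likelihood F test (two-sided) with 1 mean per group and 8 residual degrees of freedom gave 5 comparisons. P-values were adjusted by Benjamini-Hochberg over all tested genes and called under 0.05. Log2 CPM for deviations used a prior count of 2. Over all tested genes, deviations of same-numbered PBS and LPS libraries correlated at 0.14 to 0.17 in all 3 Fes+/+ pairs and at 0.07 to 0.19 in the Fes-/- pairs, of which 1 was over 0.1. By a limit of 0.1 in every pair only the Fes+/+ pairs passed, a result from the data and not the labels. The main fits used no pairing, and replicate blocks were run as alternatives. The labels name 3 mice per genotype, so the PBS and LPS libraries of a genotype would share mice. They do not state that equal numbers mark the same mouse. The main LPS and interaction fits treat these libraries as independent, and the p-values measure the spread between them. Intervals cover 95%. Counting limits cover counting error only.

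The genes, the lists and the tests were chosen with earlier results of these data known. Named were all 9 genes, Fes, up to 4 genes with the smallest p per list and comparison, and the 8 non-member genes with the highest r. Of those up to 4, some are counted and not named. Ifngr1 and Ifngr2 were named besides, as chains of the receptor that Jak2 serves. Ratios to Cd74, the longer Y box, X box and interferon motifs and the spacing of the box pair were added after the data and the promoter windows had been seen. Transcripts were compared with blastn 2.17.0, and matplotlib 3.10.9 (Python 3.11.15) drew the figures. Alternatives were shares of the library total, RLE factors, no filter or a floor of 1 CPM in 3 libraries, limma-trend (limma 3.58.1) on log2(TPM + 1) and log2(TPM + 0.1), DESeq2 1.42.0, replicate blocks, fits to the compared libraries alone, each library left out, and a prior count of 0.5 for the likeness.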

Additional observations from a re-analysis of the deposited data

How the results depend on the processing

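The direction of most LPS effects depended on the scaling. Dividing by the library total, or using TPM, sets no factor for composition and moves all genes down under LPS. Without a factor, on log2(TPM + 1) and on log2(TPM + 0.1), the members called higher in Fes+/+ cells were 0, 0 and 0 in place of 6 and those called lower 6, 6 and 6 in place of 1. In Fes-/- cells they were 1, 1 and 0 in place of 6 and 6, 6 and 6 in place of 1. In the same order of settings the Fes+/+ log2 changes that reversed were -0.45, -0.46 and -0.47 for H2-Aa, -0.14, -0.17 and -0.17 for H2-Ab1, -0.55, -0.55 and -0.57 for H2-Eb1, -0.18, -0.20 and -0.20 for Cd74, -0.78, -0.79 and -0.81 for H2-DMb1 and -0.52, -0.55 and -0.55 for Ctss. In Fes-/- cells they were -0.44, -0.46 and -0.48 for H2-Aa, -0.019, -0.055 and -0.056 for H2-Ab1, -0.41, -0.44 and -0.46 for H2-Eb1, -0.024, -0.065 and -0.065 for Cd74, -0.82, -0.84 and -0.86 for H2-DMb1 and -0.44, -0.47 and -0.47 for Ctss.

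With the 6 compared libraries fitted alone 5 members were higher in Fes+/+ cells, Ciita being lost. With no filter 1 member was lower between genotypes under PBS, 1 was higher under LPS, and 2 were lower under LPS in Fes+/+ cells, and the cause was not tested. Leaving out a library gave 4 to 6 members higher and 1 to 2 lower in Fes+/+ cells (2 without PBS 1 or LPS 2), and 6 higher and 0 to 1 lower in Fes-/- cells (0 without PBS 1, PBS 2 or LPS 3). Between genotypes and in the interaction it gave 0 throughout.

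With 3 mice per genotype the PBS and LPS libraries would share mice, but which libraries match is not stated. Each library correlated best with its own number among the libraries of the other treatment of its genotype. This hint at the matching comes from the data and not the labels. The margin was small for Fes-/- PBS 1, at 0.068 with LPS 1 and 0.060 with LPS 2. Across genotypes same-numbered libraries correlated at -0.17 to 0.02. The differently numbered Fes+/+ PBS 2 and Fes-/- PBS 3 correlated at 0.22, above every same-numbered pair. With a replicate block across all groups 5 members were higher and 1 lower in Fes+/+ cells, H2-Eb1 being lost (adjusted p = 0.0612 by edgeR), and 6 higher and 1 lower in Fes-/- cells. With a replicate block within genotype 6 were higher and 2 lower in Fes+/+ cells, H2-DMa being added (adjusted p = 0.0464). Neither block gave a call between genotypes or in the interaction where it could be fitted.

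Values that changed sign without a call were small or rested on a library. Between genotypes under PBS, leaving out a library gave -0.50 to 0.44 for Ciita (0.44 without Fes+/+ PBS 2) and -0.14 to 0.094 for H2-DMb2. Ciita was 0.057 on log2(TPM + 0.1), and H2-DMb2 was 0.027 without a factor, 0.00079 with the CPM filter and 0.034 and 0.0503 on the TPM scales. Under LPS, leaving out a library gave -0.21 to 0.043 for H2-Eb1 and -0.13 to 0.065 for Cd74. In the interaction it gave -0.086 to 0.12 for H2-Aa and -0.095 to 0.056 for H2-DMb1. There H2-Aa was -0.0019 and -0.0043 on the TPM scales and H2-DMb1 0.023 with no filter. All 16 genes named as most alike were named again with a prior count of 0.5. Depth limits H2-DMb2 most, at 14 to 78 counts a library.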
